A study of Rattus norvegicus with 2 samples.

Results

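Genes encoding receptors for glutamate, GABA and glycine were examined in the sympathetic neurons of the stellate ganglion, the ganglion whose neurons innervate the heart. They were taken by symbol from the Gria, Grik, Grid, Grin, Grm, Gabr, Gabbr and Glr families, which gave 51 of the 25395 genes used. Single-cell RNA sequencing (scRNAseq) of dissociated ganglia compared normotensive Wistar rats with spontaneously hypertensive rats (SHRs) at a prehypertensive stage, all male and 5 to 6 weeks old, with 1 library for each strain. Ganglia were dissociated with collagenase IV and trypsin and captured with 10x Genomics 3′ chemistry. The number of animals pooled in each library is not given in the sources used here. For each library the deposited data hold 1 value per gene, which is averaged over the neurons of the sympathetic cluster and covers both the neurons with and those without neuropeptide Y. Levels are given here as the mean count per 10000 counts of a neuron. Each count marks the 3′ end of 1 transcript, so levels were not divided by gene length. With 1 library per strain there is no replicate error, and no test, SD or confidence interval can be given for any difference between the strains. A change in the level per neuron and a change in the mix of neurons that were averaged cannot be told apart.

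Fast transmission from preganglionic fibers onto sympathetic neurons runs through nicotinic acetylcholine receptors. Glutamate and GABA are instead the main fast excitatory and inhibitory transmitters of the brain, and glycine shares the inhibitory role in the spinal cord and brain stem. Each acts on ion channels assembled from several subunits (AMPA, kainate and NMDA receptors for glutamate, GABA-A receptors and glycine receptors), and glutamate and GABA act in addition on G protein-coupled receptors (mGlu and GABA-B). Sympathetic neurons are long known to respond to applied GABA.

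Of the 51 receptor genes, 35 had a mean above 0 in at least 1 library and 16 were listed at 0 in both. Only 10 reached an average of 0.1 per 10000 over both libraries, the minimum used for comparing the strains. Of these, 9 are described by name, in order of their average Gabbr1, Gria2, Grik5, Gabbr2, Grin1, Glrb, Grm7, Gria3 and Grik4. Summed over all 51 genes, the level was 13.5 per 10000 in Wistar and 8.02 in SHR, which is 40.7% lower. The neuronal nicotinic genes, as the fast receptors of the ganglion, summed to 12.2 per 10000 in Wistar and 12.9 in SHR. Most of that nicotinic sum came from Chrna3 alone, at 11.4 and 12.3 per 10000, and the other 10 nicotinic genes summed to 0.754 in Wistar and 0.574 in SHR. Of the 4 nicotinic genes past the minimum, 3 (Chrna5, Chrna7 and Chrnb4) were lower in SHR. The ATP-gated P2X genes summed to 0.805 in Wistar and 0.858 in SHR, with P2rx2 higher in SHR (0.490 and 0.562) and P2rx6, under the minimum and named after its values were seen, lower (0.110 and 0.0177). The nicotinic and P2X sums were thus slightly higher in SHR, the nicotinic one through Chrna3.

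**Figure D1:**
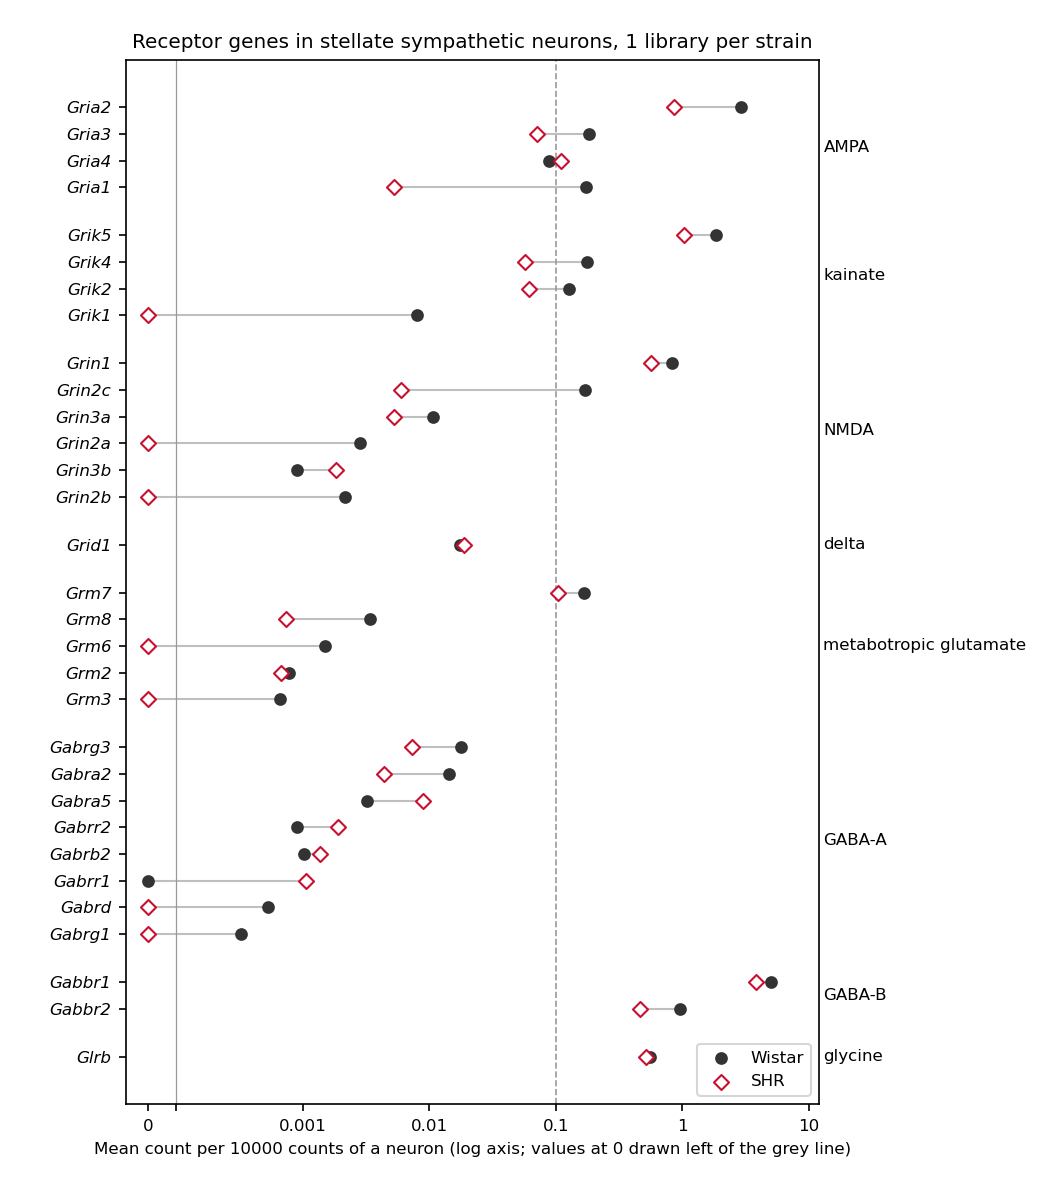
Mean count per 10000 counts of a neuron (log axis) of 31 of the receptor genes above 0 in at least 1 library, grouped by receptor family, with 1 filled circle for the Wistar library and 1 open diamond for the SHR library. The dashed line marks the minimum of 0.1 per 10000, and symbols left of the grey line stand for values listed at 0. Gria2 and Gabbr1 lie highest, and Gria1 and Grin2c show the widest gaps between the strains among genes above 0 in both.

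Across the 10 genes past the minimum, 9 were lower in SHR and 1 was higher. In the background of 7621 genes past the same minimum 65.6% were lower in SHR, so a lower level was the commoner direction among all genes. No test being possible, a 2-fold difference served as the rule. By it 4 of the 10 receptor genes (Gria2, Gabbr2, Gria3 and Grik4) were lower in SHR, against 11.3% of all genes past the minimum. Gria3 and Grik4 reached the minimum through their Wistar level only, so the count of 4 is a description and gives no support for a difference from other genes. At least 2-fold higher were 1 of the 10 and 0.761% of all genes. The median log2 difference (of 1 plus the mean, SHR minus Wistar) was -0.19 for the receptor genes and -0.05 for all 7621 genes. The median ratio of SHR to Wistar was 0.589 for the receptor genes and 0.863 for all genes, a shift of all genes of -0.21 on the log2 scale. Relative to that median gene, 8 of the 10 receptor genes remained lower in SHR, while Glrb turned to 1.08 times the median gene. On that scale as many of all genes lie below the median as above it by construction. Gria3 and Grik4 are among the 8, so this count too is only a description.

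Genes of low level were more often lower in SHR, so the receptor genes were also read within bands of level, chosen after the data were examined. Between 0.1 and 0.5 per 10000, 15.5% of all genes were at least 2-fold lower in SHR, and Gria3 and Grik4, which enter this band through their Wistar level only, were so among 4 receptor genes. Between 0.5 and 1 per 10000 the share was 7.23%, and Gabbr2 met it among Gabbr2, Grin1 and Glrb. At 1 per 10000 or more, 67 of 1676 genes (4.0%) were at least 2-fold lower and only 45.5% were lower at all. All 3 receptor genes of that band, Gabbr1, Gria2 and Grik5, were lower, and Gria2 by more than 2-fold. Gabbr2 and Gria2 too reach the lower limit of their bands through their Wistar level only, with SHR means of 0.463 and 0.865. The bands therefore describe the genes and give no support for a difference from other genes.

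**Figure D2:**
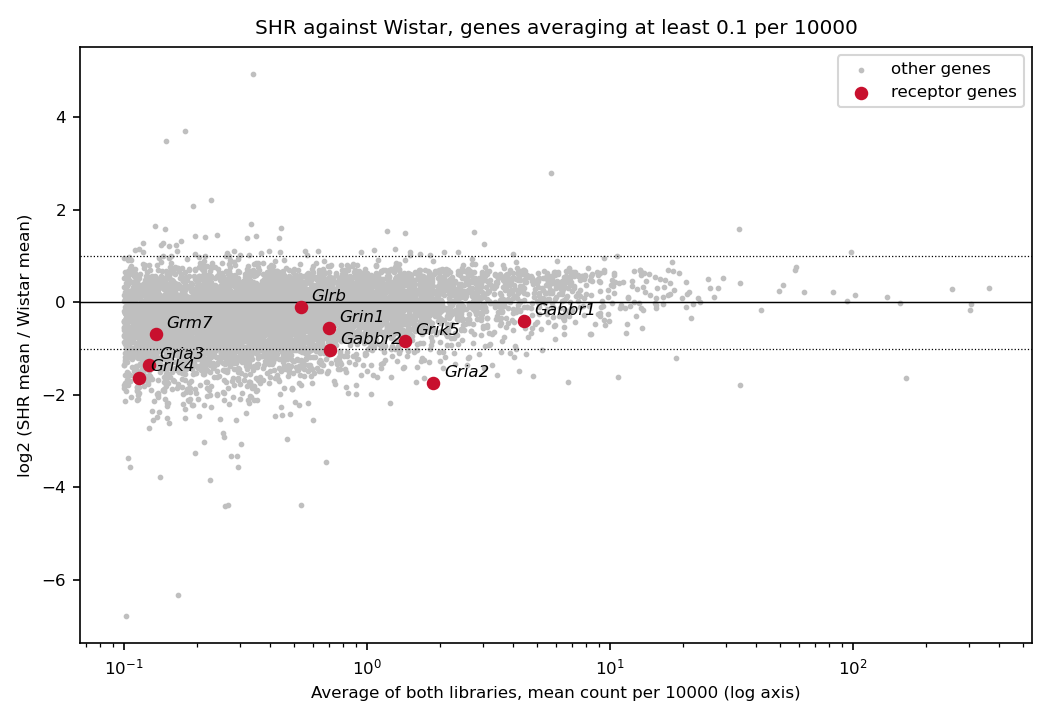
Log2 ratio of the SHR mean to the Wistar mean against the average of both libraries (log axis) for genes past the minimum, 1 point per gene, with the 9 receptor genes described by name in red. Dotted lines mark a 2-fold difference. Gria2 sits below the lower dotted line at an average above 1 per 10000, Gabbr2, Gria3 and Grik4 also lie below it, and the other 5 lie between it and 0.

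Markers of other cell types moved between the libraries too, and the values given here apply to all comparisons below. All 9 listed markers of satellite glia and Schwann cells (such as S100b, Mbp and Sox10) were lower in the SHR neurons, with a sum of 3.20 per 10000 in Wistar and 1.25 in SHR. All 7 fibroblast markers were lower, with a sum of 1.97 in Wistar and 0.401 in SHR. For immune markers 6 of 7 above 0 were lower (sums of 1.23 and 0.403), for endothelial markers 5 of 6 (0.228 and 0.0604), and for smooth muscle and pericyte markers 4 of 6 (0.125 and 0.0704). The 2 erythrocyte markers above 0 moved in opposite directions (sums of 0.0669 and 0.0499). At 0 in both libraries were Cd3e and Alas2, and Rgs5 was at 0 in SHR. The cluster itself carried its own identity in both strains, since the 11 sympathetic markers, among them Th, Dbh and Slc6a2, were all above 0.25 per 10000 in each library. Their sum was 69.9 in Wistar and 61.8 in SHR, 11.6% lower. Of the 11, 8 were lower in SHR, as were 65.6% of all genes past the minimum. Among these Ddc was 51.2% lower, Dbh 37.6%, Npy 37.8% and Slc18a2 32.1%, sizes like those of many receptor genes. Some receptor genes are known in glia as well as in neurons, and the part of the other cell types, or of the mix of neurons with and without Npy, in the receptor results was not tested.

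**Figure D3:**
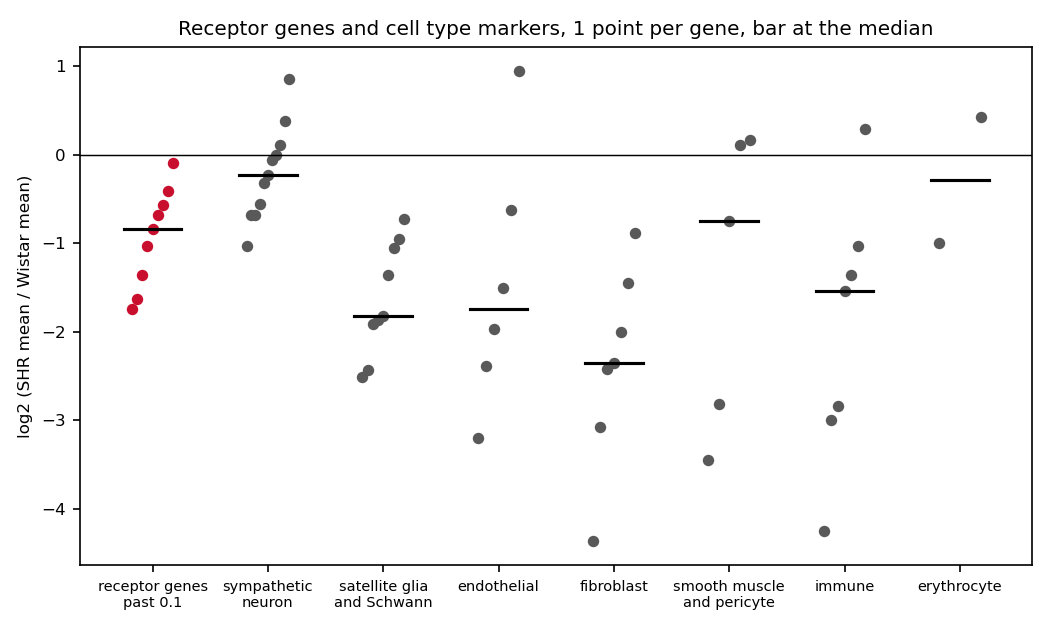
Log2 ratio of the SHR mean to the Wistar mean for the 9 receptor genes past the minimum that are described by name (red) and for the markers of 7 cell types above 0 in both libraries (grey), 1 point per gene with a bar at the median of each set. All satellite glia and fibroblast markers lie below 0, and the sympathetic markers spread on both sides of it.

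The GABA-B receptor genes were the most abundant of the receptor families. The receptor is an obligate pair, in which the GABBR1 subunit binds GABA and the GABBR2 subunit carries it to the membrane and couples it to inhibitory G proteins. The Gabbr1 level was 5.06 per 10000 in Wistar (rank 251 of all genes) and 3.81 in SHR (rank 389). It was thus 24.6% lower in SHR, with a log2 difference of -0.33. Gabbr2 averaged 0.951 in Wistar and 0.463 in SHR, 51.3% lower, with a log2 difference of -0.42. Both partners were lower in SHR and Gabbr2 more so, such that the ratio of Gabbr1 to Gabbr2 was 5.32 in Wistar and 8.23 in SHR.

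The RefSeq promoter windows of the rat assembly GRCr8 were compared for the genes that could be matched, 34 of the 51. The series' own notes name another build, Rnor_6.0, so the positions below belong to GRCr8 only. Each window runs from 250 bases before to 50 bases after a gene's start, and the GC box searched is GGGCGG on either strand (on the other strand CCGCCC). Of 7 matched genes past the minimum 6 held a GC box, against 3 of 14 below the minimum, 6 of 13 listed at 0 in both libraries, and 33.1% of all 33469 windows. The median count of CpG dinucleotides was 25, 10, 10 and 7 in these sets. A dense window did not go with a level in every case, since Grik3 and Gabra4, with 49 and 35 CpG dinucleotides, were listed at 0 in both libraries. The windows of the GABA-B pair, of Grin1 and of Gabra6, a gene listed at 0, are shown because they span this range, with the GC boxes in capitals. Among the genes without an entry are Gria1, Gria2, Gria3, Grid1, Grin2a, Grin2b, Grin3b, Grm2, Grm3, Gabra2, Gabrp and Glra1.
Gabbr1 (chr20:1499187-1499486, minus strand): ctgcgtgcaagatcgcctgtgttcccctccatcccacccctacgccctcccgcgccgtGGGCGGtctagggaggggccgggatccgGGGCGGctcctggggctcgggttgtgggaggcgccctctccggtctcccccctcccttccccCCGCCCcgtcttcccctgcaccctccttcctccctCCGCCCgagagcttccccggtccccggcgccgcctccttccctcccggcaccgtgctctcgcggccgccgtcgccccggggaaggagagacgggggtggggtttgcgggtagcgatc
Gabbr2 (chr5:66083646-66083945, minus strand): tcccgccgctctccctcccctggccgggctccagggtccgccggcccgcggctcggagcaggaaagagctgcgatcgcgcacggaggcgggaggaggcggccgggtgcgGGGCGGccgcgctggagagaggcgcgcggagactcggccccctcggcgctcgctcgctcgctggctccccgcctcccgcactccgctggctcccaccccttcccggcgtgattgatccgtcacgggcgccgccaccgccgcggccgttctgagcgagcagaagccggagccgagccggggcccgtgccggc
Grin1 (chr3:28528705-28529004, minus strand): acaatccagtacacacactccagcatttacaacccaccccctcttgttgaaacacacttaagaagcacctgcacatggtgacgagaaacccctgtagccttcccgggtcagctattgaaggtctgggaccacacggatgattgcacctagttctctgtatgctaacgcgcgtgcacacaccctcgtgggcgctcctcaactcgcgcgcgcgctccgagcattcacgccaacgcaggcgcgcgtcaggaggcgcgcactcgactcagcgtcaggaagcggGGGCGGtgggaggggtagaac
Gabra6 (chr10:27327185-27327484, minus strand): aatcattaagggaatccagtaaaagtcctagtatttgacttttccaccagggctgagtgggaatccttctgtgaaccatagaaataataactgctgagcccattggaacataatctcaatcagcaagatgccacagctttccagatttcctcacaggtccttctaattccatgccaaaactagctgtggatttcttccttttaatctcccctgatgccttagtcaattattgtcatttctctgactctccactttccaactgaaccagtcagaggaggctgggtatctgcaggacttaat

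The Gabbr1 window holds 4 GC boxes and 32 CpG dinucleotides, the Gabbr2 window 1 and 47, and the Grin1 window 1 and 25. The Gabra6 window holds 0 of either. These letters describe the windows and say nothing of which factors bind there.

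Among the AMPA receptor genes, Gria2 carried most of the level and was the lowest in SHR, relative to Wistar, of the 6 receptor genes averaging 0.5 per 10000 or more. AMPA receptors are tetramers of the subunits GluA1 to GluA4 (Gria1 to Gria4), and edited GluA2, encoded by Gria2, makes the channel nearly impermeable to calcium. The Gria2 level was 2.90 per 10000 in Wistar (rank 506 of all genes) and 0.865 in SHR (rank 1863). It was 70.1% lower in SHR, a log2 difference of -1.06. Gria2 made up 86.7% of the AMPA sum in Wistar and 82.4% in SHR, so the family followed it from 3.34 to 1.05 per 10000.

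The other AMPA genes were near the minimum and differed in direction. Gria3 averaged 0.183 per 10000 in Wistar and 0.0709 in SHR, 61.2% lower, with a log2 difference of -0.14. Gria4 was the exception, at 0.0874 in Wistar and 0.109 in SHR. Gria1, averaging just under the minimum, had 0.174 in Wistar and 0.00524 in SHR, a ratio of Wistar to SHR of 33.2. In Wistar, then, Gria1 and Gria3 were at about the same level and Gria4 was lower, whereas in SHR Gria1 lay far below the others.

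How coarse the low means are can be read from values that several genes share exactly, as 1 or a few counts in a single neuron give the same mean to whichever gene they fall on. Values shared by at least 5 genes ranged from 0.000140 to 0.00524 per 10000 in Wistar, with a median of 0.000283 over 109 such values. In SHR they ranged from 0.000391 to 0.0186, with a median of 0.000881 over 105 such values. A mean inside this range can rest on counts in a single neuron. The SHR mean of Gria1 lies inside it and the Wistar mean well above it, so that the SHR side of the ratio is poorly resolved. The number of neurons and their depth are not in the deposited values, and no detection limit can be stated.

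Kainate receptor genes were led by Grik5. GluK1 to GluK3 (Grik1 to Grik3) can form channels on their own, while GluK4 and GluK5 (Grik4, Grik5) bind kainate with high affinity but need a partner of the first group. Grik5 averaged 1.84 per 10000 in Wistar and 1.03 in SHR, 44.3% lower, with a log2 difference of -0.49. Grik4 averaged 0.175 in Wistar and 0.0567 in SHR, 67.6% lower, with a log2 difference of -0.15. Both subunits that need a partner were lower in SHR. Of the partners, Grik2 was the main one listed, at 0.128 in Wistar and 0.0617 in SHR. Grik1 was listed at 0.00794 in Wistar and at 0 in SHR, and Grik3 was at 0 in both. Grik4 and Grik5 together summed to 2.01 per 10000 in Wistar and 1.08 in SHR, against 0.135 and 0.0617 for Grik1 to Grik3. In both strains the level thus lay mostly with the subunits that need a partner, and the ratio of Grik5 to Grik2 was 14.4 in Wistar and 16.6 in SHR.

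NMDA receptor transcripts were dominated by the obligatory subunit. GluN1 (Grin1), which binds glycine or D-serine, is part of every NMDA receptor, and a GluN2 subunit (Grin2a to Grin2d) binds glutamate. Grin1 averaged 0.831 per 10000 in Wistar and 0.561 in SHR, 32.4% lower, with a log2 difference of -0.23. Grin2c was the only Grin2 gene at a sizable level, at 0.170 in Wistar and 0.00592 in SHR, a ratio of Wistar to SHR of 28.6. Grin2a and Grin2b were listed at 0.00280 and 0.00214 in Wistar and at 0 in SHR, and Grin2d was at 0 in both. The sum of the GluN2 genes was accordingly 0.175 per 10000 in Wistar and 0.00592 in SHR, while Grin1 stayed at a ratio of 0.676. The GluN3 genes, whose subunits bind glycine, were low, with Grin3a at 0.0107 in Wistar and 0.00524 in SHR and Grin3b at 0.000892 and 0.00183.

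Gria1 and Grin2c had the widest differences of the receptor genes above 0 in both libraries. The comparison was extended to an average of 0.05 per 10000 after their values were seen, which takes in 16 receptor genes. These 2 were the only ones of the 16 at least 10-fold lower in SHR. Over the 9134 genes past that lower minimum the share was 0.383%, from which nothing is read, since both genes pass it through their Wistar level only and set the choice of the minimum. Both SHR means lie in the range that counts in a single neuron can give. The markers of glia, fibroblasts and immune cells were also lower in SHR, with S100b at 0.424 and 0.0744 per 10000, Col1a1 at 0.542 and 0.0644 and C1qa at 0.138 and 0.00727, and their part in the levels of Gria1 and Grin2c was not tested.

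The delta and metabotropic glutamate receptor genes were low. Delta subunits belong to the glutamate receptor family by sequence and act at synapses by binding cerebellins. Grid1 averaged 0.0174 per 10000 in Wistar and 0.0188 in SHR. The mGlu genes were represented almost entirely by Grm7, which encodes a presynaptic receptor coupled to inhibitory G proteins. Grm7 averaged 0.167 in Wistar and 0.104 in SHR, 37.9% lower, with a log2 difference of -0.08, and it made up 96.4% and 98.7% of the family's sum. Of the same coupling, Grm8 was listed at 0.00338 and 0.000740, Grm2 at 0.000778 and 0.000668, and Grm6 and Grm3 at 0.00148 and 0.000656 in Wistar and at 0 in SHR. Grm5, which encodes a receptor coupled to phospholipase C, was listed at 0 in both libraries. Grm4 was not analysed here.

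GABA-A receptor genes were numerous but low. A typical GABA-A receptor is a chloride channel of 5 subunits drawn from alpha, beta and gamma types. Most of the 19 genes were at the limit of what the means resolve. Gabrg3 had 0.0179 per 10000 in Wistar and 0.00724 in SHR, Gabra2 had 0.0143 and 0.00438, and Gabra5 had 0.00320 and 0.00889. Gabrb2 had 0.00103 and 0.00137. The rho genes, which form channels on their own, were Gabrr2 at 0.000900 and 0.00188 and Gabrr1 at 0 and 0.00106. Gabrd and Gabrg1 were listed at 0.000526 and 0.000327 in Wistar and at 0 in SHR. Gabra3, Gabra4, Gabra6, Gabrb1, Gabre, Gabrp, Gabrq and Gabrr3 were at 0 in both libraries. For Gabra5, Gabrb2, Gabrr1, Gabrr2, Gabrd and Gabrg1 both means were at 0 or within the range that counts in a single neuron can give, and no direction is read from them.

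Some of the receptor genes are neighbors in the genome, and neighbors could differ in level. In the order of protein-coding genes of GRCr8, 2 of the 4 genes of the cluster of Gabrb1, Gabra4, Gabra2 and Gabrg1 were above 0, and in that of Gabre, Gabra3 and Gabrq none was. Gria2 and Glrb are next to each other. Their levels kept no fixed ratio, with Gria2 at 5.24 times the level of Glrb in Wistar and 1.67 times in SHR.

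Of the glycine receptor genes only Glrb was listed above 0. Glycine receptors are chloride channels in which an alpha subunit carries the channel and the beta subunit, encoded by Glrb, anchors it to gephyrin. Glrb averaged 0.553 per 10000 in Wistar and 0.517 in SHR, 6.54% lower, with a log2 difference of -0.03. This was the smallest difference of the 10 genes past the minimum. Glra1, Glra2, Glra3 and Glra4 were at 0 in both libraries, so the beta subunit gene was listed without any alpha subunit gene.

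**Figure D4:**
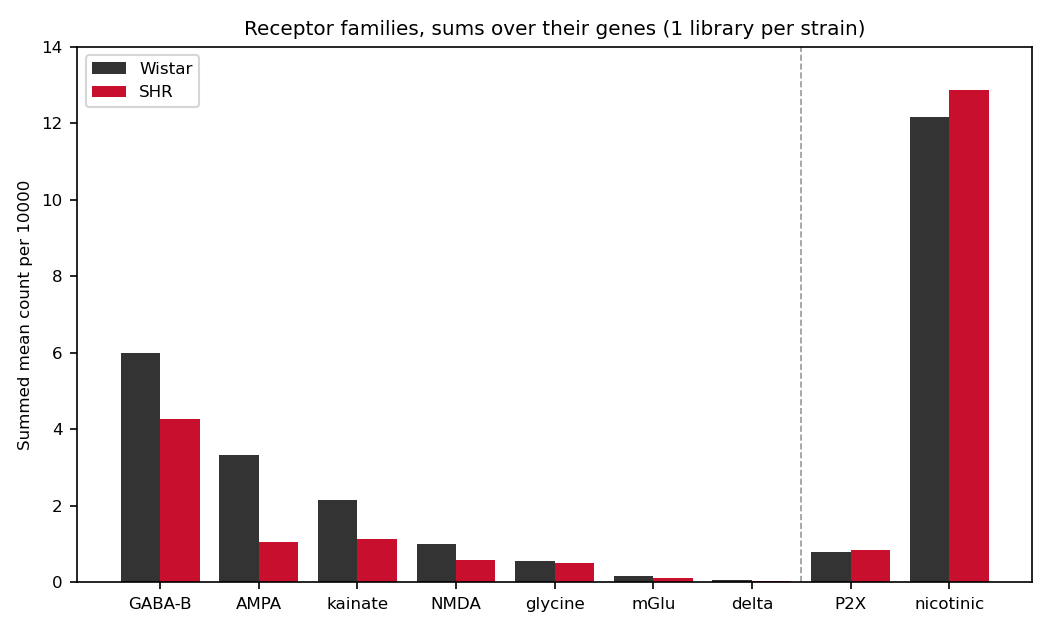
Summed mean count per 10000 over the genes of 7 receptor families in the Wistar library (black) and the SHR library (red), on a linear axis from 0, with the P2X and neuronal nicotinic genes right of the dashed line for comparison. GABA-B, AMPA, kainate and NMDA sums were lower in SHR, the AMPA sum going from 3.34 to 1.05, whereas the P2X and nicotinic sums were higher. The GABA-A family is not drawn, so the bars do not cover all families of the receptor genes.

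Genes that serve these receptors were read from lists of 63 genes in all, of which 57 could be analysed. The minimum left 19 genes, and of these 14 were lower and 5 higher in SHR, and 0 of them differed by 2-fold in either direction. Over all genes past the minimum 65.6% were lower, and 11.3% and 0.761% were at least 2-fold lower and higher. Their median log2 difference was -0.09. Among auxiliary proteins of AMPA and kainate receptors, Pick1, which binds GluA2 and takes part in its trafficking, had 0.398 per 10000 in Wistar and 0.234 in SHR. Cnih2, a cornichon that slows AMPA channel closing, had 0.304 and 0.277. Cacng4, which encodes the TARP gamma-4 of AMPA receptors, was higher in SHR at 0.217 against 0.130 in Wistar, while Gria2 was lower. The 7 genes tied to delta and mGlu receptors were all below the minimum.

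Of the 7 GABA and glycine receptor accessory genes past the minimum, 4 were lower in SHR and 3 higher. The 3 higher ones were the most abundant, namely Gabarapl2 (4.93 per 10000 in Wistar, 6.62 in SHR), Gabarapl1 (3.77 and 5.52) and Gabarap (2.91 and 5.32). Their proteins are known for autophagy as well as for moving GABA-A receptors. Gphn, encoding the gephyrin scaffold of inhibitory synapses, was 49.0% lower, at 0.258 in Wistar and 0.132 in SHR, a gene named here after its values were seen. Among genes of glutamate supply and uptake, 3 of 4 past the minimum were lower. Glud1, a mitochondrial enzyme that interconverts glutamate and its keto acid, had 1.25 and 1.20, and the transporter gene Slc1a1 had 0.360 and 0.237.

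Genes that would mark the neurons as releasing these transmitters were at or near 0. The vesicular glutamate transporter genes Slc17a7 and Slc17a8 were at 0 in both libraries and Slc17a6 was at 0.000569 in Wistar and 0 in SHR. Gad1, which makes GABA, was at 0.000774 and 0.000712, and Gad2 and the vesicular transporter gene Slc32a1 were at 0 in both. None of the 10 genes of GABA and glycine supply passed the minimum. All 5 genes of the chloride gradient past the minimum were lower in SHR, as were 65.6% of all genes past it. Slc12a2, the chloride importer NKCC1, had 0.609 per 10000 in Wistar and 0.426 in SHR, and Clcn3, a chloride-proton exchanger of endosomes, had 0.970 and 0.726. Slc12a5, the neuronal chloride exporter KCC2, was at 0.000257 in Wistar and 0.000611 in SHR, so the importer gene was listed far above it in both strains. The genes at or near 0 and Slc12a5 were named after their values were seen.

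Counted over all 25 receptor genes that were above 0 but under the minimum, 17 were lower and 8 higher in SHR. Of all 8768 genes in that range 70.2% were lower, so the receptor genes did not stand out. For 13 of the 25, both means were at 0 or within the range that counts in a single neuron can give. Of the other 12, 9 were lower in SHR, while Gria4 and Grid1 were among the 3 higher ones. The share of all genes was not counted for this narrower range, so nothing is read from the 9.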

How the data were processed

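The deposited data hold scRNAseq of dissociated stellate ganglia (10x Genomics 3′ version 3 libraries, HiSeq 4000), 1 library per strain. The submitters' processing notes name Cell Ranger 3.0.2, Seurat 3, DESeq2 and the build Rnor_6.0. Cells were clustered by the authors in Seurat. For the sympathetic cluster of each library the authors deposited 1 natural log value per gene, of the mean count scaled to 10000 per cell with 1 added. After back conversion these sum to 10000 per library. Filters on cells, the treatment of doublets, the number of neurons and the depth are not given in the sources used here. A further table by the authors, with their own fold changes, p-values and shares of cells, was not used.

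Of 25399 lines, 4 whose gene name occurs more than once were dropped. Means, ratios and log2 differences (1 added to each mean) were calculated in Python 3.11.15, NumPy and pandas, and the counting steps were tested on simulated data. No test was made. Receptor genes averaging at least 0.1 per 10000 are named with full values, the others by family, except for some genes that are counted in numbers and sums but not reported here by name. Of each other list, genes past the minimum were counted and up to 3 of highest average named. The receptor genes and lists were chosen with earlier results of these data known. Alternatives covered pseudocounts, scalings, minimums and the fold.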

Additional observations from a re-analysis of the deposited data

How the results depend on the processing

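A pseudocount cannot change the direction of a gene. Leaving genes out of the total shifted the median gene by at most 0.041 on the log2 scale, too little to turn any of the 10. Setting the median ratio of all genes to 1 shifted it by 0.212, and 9 of the 10 receptor genes past the minimum kept their direction. The exception was Glrb, whose log2 difference became 0.042 when the median ratio of all genes past the minimum was set to 1, which left 2 receptor genes higher in SHR. Leaving mitochondrial and ribosomal protein genes, markers of other cell types or the 10 most abundant genes out of the total moved none of the 10 by 0.1 or more on the log2 scale. Gabbr2, at a ratio of 0.487, is close to the 2-fold line, and its ratio became 0.501 without mitochondrial and ribosomal protein genes and 0.564 with the median ratio set to 1, which left 3 of the 4 genes at least 2-fold lower. The median log2 difference followed the pseudocount by construction and was -0.61 at 0.1, -0.74 at 0.01 and -0.027 at 10 per 10000. At each of these pseudocounts, 8 of the 10 genes moved by 0.1 or more on the log2 scale. At 0.01 per 10000 Gria2 went from -1.06 to -1.73 and Grik4 from -0.15 to -1.47. The log2 differences given by gene thus depend on the pseudocount, while the percent changes use none.

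With no minimum, 27 receptor genes above 0 in both libraries gave 19 lower and 8 higher, 12 and 4 of them by at least 2-fold, with a median of -0.027, against 66.0%, 34.0%, 21.9% and 6.04% of all genes. With a minimum of 0.05 per 10000, 3 of 16 were higher (33.0% of all genes), 7 were at least 2-fold lower (13.8%), and 2, against 0 at the main minimum, were at least 10-fold lower. With a minimum of 0.5 per 10000 only 6 receptor genes were left, with 0 higher (45.9% of all genes), 2 at least 2-fold lower (5.53%), 0 at least 2-fold higher (0.657%) and a median of -0.37. These counts differ because other numbers of genes enter. Some genes counted as lower pass through their Wistar level only, among them Gria1 and Grin2c at 0.05 and Gabbr2 at 0.5. The counts are therefore descriptions and give no support for a difference from other genes. No paired analysis was possible because there was a single library of either strain, and no replicate could be left out. The depth is unknown, so counting error cannot be stated, and it weighs most on genes of low mean.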
